A study of Mus musculus with 16 samples.

Results

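Hepcidin, the hormone with which the liver sets the body's iron supply, and the genes that sense, carry, store and export iron were examined in the livers of Trim28MommeD9/+ mice and their Trim28+/+ littermates. The genes were Hamp, Bmp6, Hfe, Hfe2 (current symbol Hjv), Tfr2, Tfrc, Trf, Fth1, Ftl1 and Slc40a1. They were chosen by name, as every probe annotated to 1 of these 10 symbols, which gave 15 of the 25697 probes of the array and 10 of its 16593 named genes. The Trim28MommeD9 allele came from a mutagenesis screen with N-ethyl-N-nitrosourea and is a point mutation of Trim28 predicted to disturb its splicing. Trim28 encodes a co-repressor that builds heterochromatin. All mice were 4-week-old FVB/NJ males of a line that carries a GFP transgene expressed in red blood cells, in mutants and controls alike, and the mutant mice were heterozygous in every cell. RNA from whole liver was hybridised to Illumina MouseRef-8 v2.0 BeadChips, with 7 Trim28MommeD9/+ and 9 Trim28+/+ arrays. The study's methods give 4 mice of each genotype with technical replicates, and none of the sources names the arrays that share a mouse. The p-values below treat each array as a sample and are therefore too small.

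Hepcidin is made by hepatocytes and blocks ferroportin (Slc40a1), the only known exporter of iron from cells, so that high hepcidin keeps iron inside macrophages, enterocytes and hepatocytes. Its transcription rises when iron-loaded transferrin engages Hfe and Tfr2, and when Bmp6 from sinusoidal endothelial cells signals through hemojuvelin (Hjv) and SMAD proteins; inflammation raises it through Stat3. Cells take up transferrin iron through Tfrc and store it in ferritin, a shell of Fth1 and Ftl1 chains. Iron regulatory proteins control ferritin mainly at translation and Tfrc through the stability of its mRNA. Mice carry a second hepcidin gene, Hamp2, next to Hamp, whose product is not known to act on iron in the same way.

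The letters upstream of these neighbouring genes are shown because the array measured both and their genotype differences over all arrays were unlike. Whether the letters bear on those differences was not tested. In the GRCm38.p6 build Hamp lies at chr7:30942368-30944029 and Hamp2 at chr7:30922372-30924181, on the same minus strand and 18.2 kb apart. The 150 bases before each annotated start (RefSeq, chr7:30944030-30944179 for Hamp and chr7:30924182-30924331 for Hamp2) are printed 5′ to 3′. Capitals mark the letters GGCGCC, known from the BMP-responsive element of the human hepcidin promoter, or the block aligned with them, and matches to TTCNNNGAA, the letters of a STAT site.
Hamp: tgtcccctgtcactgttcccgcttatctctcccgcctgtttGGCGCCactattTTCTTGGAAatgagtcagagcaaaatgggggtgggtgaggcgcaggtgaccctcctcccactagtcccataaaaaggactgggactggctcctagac
Hamp2: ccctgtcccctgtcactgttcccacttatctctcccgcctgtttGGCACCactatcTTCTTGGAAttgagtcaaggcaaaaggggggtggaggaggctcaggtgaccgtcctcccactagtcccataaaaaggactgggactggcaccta
Over the windows from 250 bases before to 50 after the starts, 276 of 297 aligned bases (92.9%) were identical. Hamp held GGCGCC 109 bases before its start, and the aligned block of Hamp2 carried G4A, counted from 1 at the 5′ end of those letters. The STAT letters began 97 bases before the start in Hamp and 94 before it in Hamp2. Both motifs read the same on both strands and do not overlap here. Over 32851 windows of this length, 11.9% held GGCGCC and 8.30% held TTCNNNGAA. RefSeq windows were matched for 7 of the 10 genes (11 windows). Besides Hamp, GGCGCC occurred 89 bases before 1 of the starts of Tfrc, and the STAT letters occurred in none of the other windows. A match is a run of letters and was not tested as a binding site.

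The arrays differed in their background in a way that nearly follows genotype. The constant that the authors subtracted from each array was between 37.6 and 42.7 on all 7 Trim28MommeD9/+ arrays and Trim28+/+ replicate 1 (the low-background set), and between 48.8 and 56.2 on the other 8 Trim28+/+ arrays (the high-background set). Mean raw intensity was 205 to 270 in Trim28MommeD9/+ and 273 to 344 in Trim28+/+. A fit with the set as a block compares the mutants with Trim28+/+ replicate 1 alone, and apart from that array genotype and background cannot be told apart. Replicate 1 is not a close match to the mutants either. Its constant was 42.7, against 37.6 to 40.3 on the mutant arrays, and its mean raw intensity was 317. It had 10262 probes detected, against 9186 to 9572 on the mutant arrays and 9303 to 9630 on the other controls. Levels are background-corrected, quantile-normalized log2 intensities, a gene's level is that of its brighter probe, and p-values come from limma, adjusted by the Benjamini-Hochberg method over all 7302 genes (or all 10291 probes, where a probe is named). At an adjusted p under 0.05, 761 genes were higher in Trim28MommeD9/+ (10.4%) and 831 lower (11.4%), 21.8% in either direction. With the set as a block these were 2 (0.0274%) and 1 (0.0137%). The split into higher and lower genes moved with the scaling, to 35 and 2526 with each array scaled by its median, 968 and 711 with the median taken over probes detected on all arrays, and 377 and 1079 from the authors' values. Trim28 was 8.53 to 8.76 in the mutants and 8.63 to 9.39 in Trim28+/+, lower by 0.44 on the log2 scale (adjusted p = 0.00277) and lower by 0.77 against Trim28+/+ replicate 1 alone (adjusted p = 0.186).

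Of the 10 iron genes, 7 were detected and tested. Hamp was lower in Trim28MommeD9/+ and the other 6 did not pass the threshold, so that 14.3% of the tested members were called beside 21.8% of all genes. The median log2 fold change (Trim28MommeD9/+ minus Trim28+/+) was 0.01 over the 7 members and 0.05 over all genes. No member was called with the set as a block, beside 0.0411% of all genes. By probe, 3 of the 11 tested passed, namely Hamp and the second probe of Fth1 among the lower and the second probe of Hfe among the higher ones, beside 23.3% of all probes.

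Hamp, which encodes hepcidin, was measured by a single probe that was detected on every array. Its log2 level was lowest at 11.52, with a median of 12.70 and a highest value of 12.90, in Trim28MommeD9/+. In Trim28+/+ it was 12.18 at the lowest, 13.09 at the median and 13.53 at the highest. The lowest Trim28+/+ array was replicate 1, within the mutant range, while the 8 high-background Trim28+/+ arrays lay between 12.74 and 13.53, and 5 of the 7 mutant arrays were below all of these. How many of all genes had at least 5 such arrays was not counted. The values the authors deposited averaged 5803 ± 1840 (SD, n = 7) in Trim28MommeD9/+ and 8805 ± 2257 (SD, n = 9) in Trim28+/+. The log2 fold change was -0.66 (SE 0.21, 95% confidence interval -1.09 to -0.23, adjusted p = 0.0300 by limma), that is 1.58-fold lower in the mutants.

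Against Trim28+/+ replicate 1, the only control of the low-background set, the log2 fold change of Hamp was 0.22 (SE 0.38, adjusted p = 0.957, limma with the set as a block), a value that rests on 1 control array. Leaving out Trim28MommeD9/+ replicate 3, Trim28MommeD9/+ replicate 6, Trim28+/+ replicate 7 or Trim28+/+ replicate 9 ended the call, with log2 fold changes of -0.56, -0.51, -0.62 and -0.60 and adjusted p-values by limma of 0.0649, 0.0683, 0.0516 and 0.0542. With pairs of arrays taken as technical replicates by their overall likeness (presumptive technical pairs, as a random block), the adjusted p was 0.115.

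**Figure D1:**
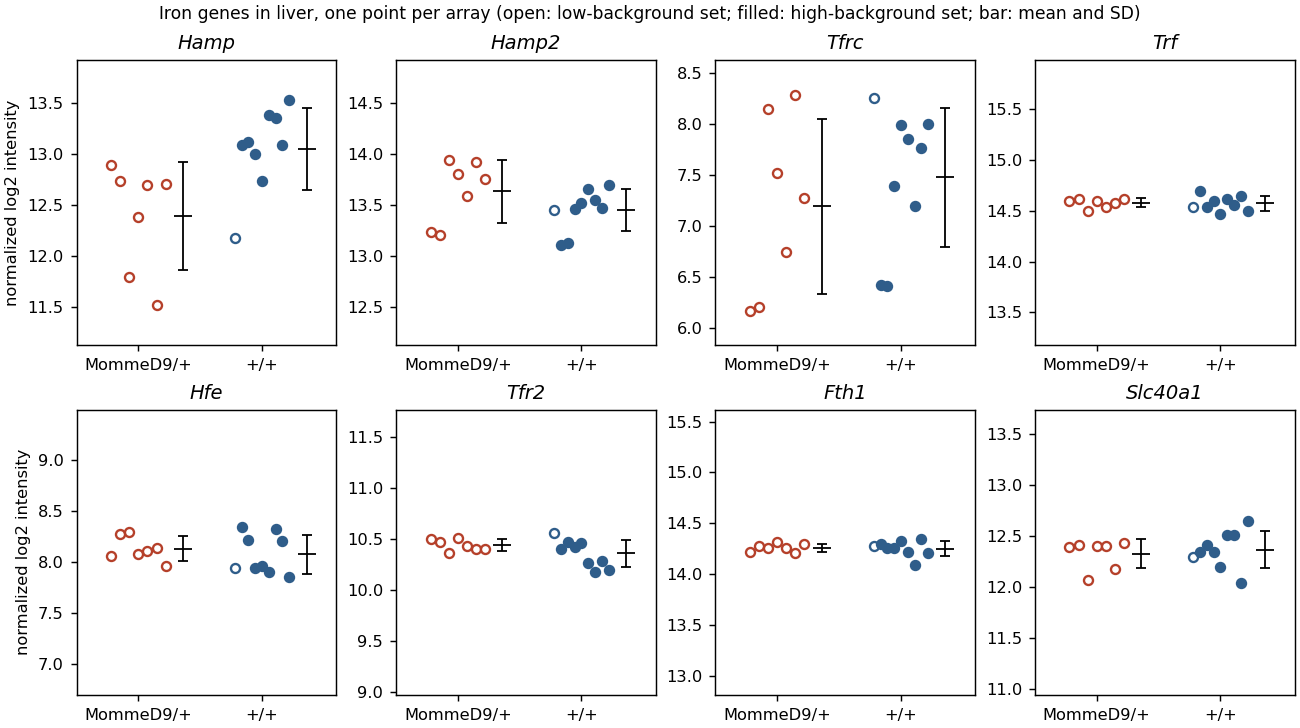
Normalized log2 intensity (vertical axes, all of the same span) of Hamp, Hamp2 and the other 6 tested iron genes in Trim28MommeD9/+ (red, 7 arrays) and Trim28+/+ (blue, 9 arrays). Each point is an array, open for the low-background set and filled for the high-background set, and the bar gives the mean and SD. Hamp and Tfrc spread widely within each genotype. The narrow spread of Trf and Fth1 is that of quantile-normalized values and was wider under the other scalings.

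Hamp2, 18.2 kb away, was not measurably lower. Its log2 level ran from 13.21 through a median of 13.75 to 13.94 in Trim28MommeD9/+ and from 13.10 through 13.47 to 13.70 in Trim28+/+. The genotypes overlapped, with 4 of the 7 mutant arrays above every Trim28+/+ array, and the difference did not pass the threshold (0.19, SE 0.12, 95% confidence interval -0.06 to 0.43, adjusted p = 0.253 by limma). How many of all genes had at least 4 such arrays was not counted. Against Trim28+/+ replicate 1 alone Hamp2 differed by 0.19, beside 0.22 for Hamp. The per-array difference of the log2 levels of Hamp and Hamp2 was then compared between genotypes, a comparison chosen after the values were seen. It changed by -0.85 from Trim28+/+ to Trim28MommeD9/+, a description given with no test, and 5 of the 7 mutant arrays lay below all high-background Trim28+/+ arrays. Against Trim28+/+ replicate 1 the change was 0.03. The size of the difference itself depends on the pair of probes and only its change between arrays was read. Probe sequences were not used here, so whether either probe also binds the RNA of the other gene is unknown.

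Tfrc, the receptor through which cells take up transferrin iron, was among the most variable genes of these livers. Its log2 level ran from 6.17 through a median of 7.28 to 8.29 in Trim28MommeD9/+, and from 6.41 through 7.76 to 8.25 in Trim28+/+. The genotypes covered nearly the same range, and the log2 fold change of -0.28 (SE 0.34, 95% confidence interval -0.998 to 0.43, adjusted p = 0.578 by limma) was smaller than the spread within either genotype. That spread was 0.86 (SD, n = 7) and 0.68 (SD, n = 9) log2 units, and 99.3% of all genes had a smaller spread within genotypes, beside 96.9% for Hamp (99.3% to 99.4% and 95.3% to 97.2% under the other scalings). The second probe of Tfrc followed the first closely over the arrays (r = 0.98 of the deviations from the genotype means, 16 arrays), with a log2 fold change of -0.34 (adjusted p = 0.496 over probes by limma).

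The levels of Tfrc and of both hepcidin genes varied together over the mutant arrays. Trim28MommeD9/+ replicates 3 and 6 had the lowest Hamp (11.80 and 11.52), the highest Tfrc (8.15 and 8.29) and the highest Hamp2 (13.94 and 13.92). Replicates 1 and 2 had the highest Hamp (12.90 and 12.74), the lowest Tfrc (6.17 and 6.21) and the lowest Hamp2 (13.23 and 13.21). Replicates 4, 5 and 7 lay between them in Tfrc (7.52, 6.74 and 7.28). Trim28+/+ replicate 1, the control with the lowest Hamp (12.18), had the highest Tfrc of its genotype (8.25).

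**Figure D2:**
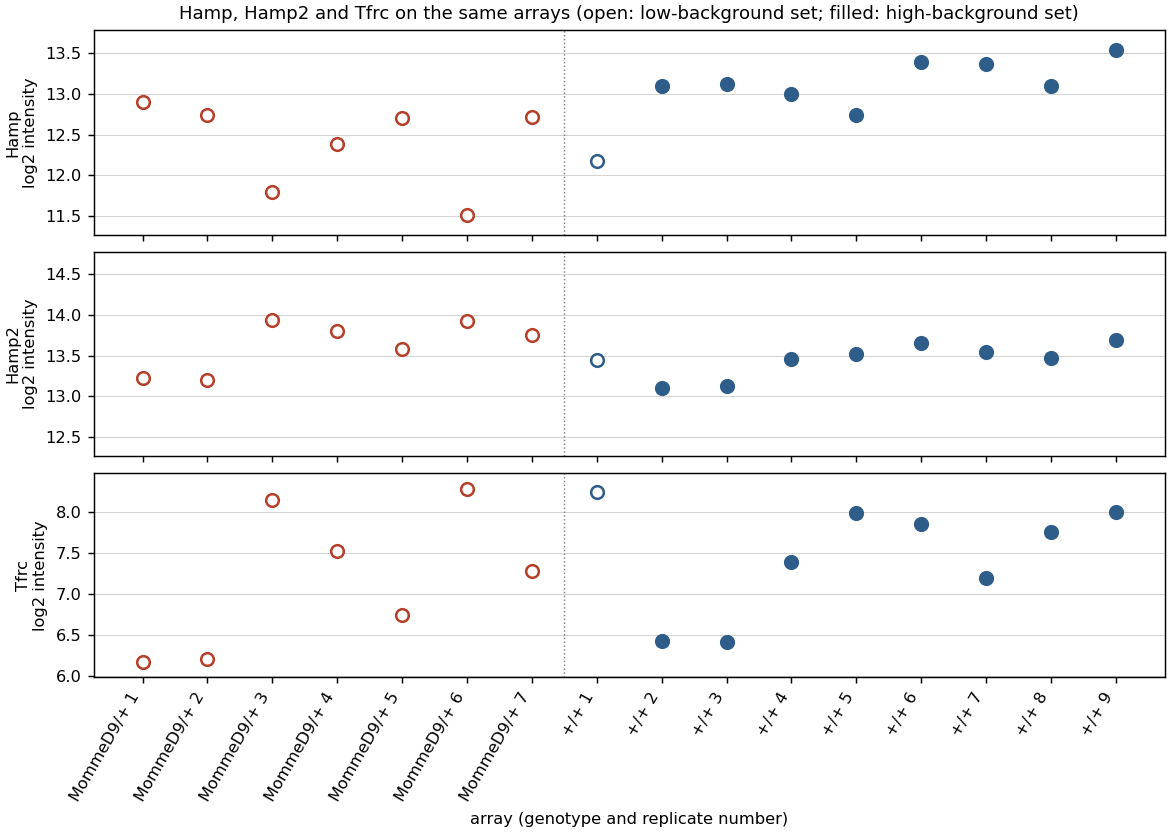
Normalized log2 intensity of Hamp, Hamp2 and Tfrc (from top to bottom, vertical axes of the same span) on each of the 16 arrays (horizontal axis), red for Trim28MommeD9/+ and blue for Trim28+/+, open for the low-background set. Arrays with low Hamp among the mutants, replicates 3 and 6, are those with high Tfrc and Hamp2.

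As a description over arrays that may share a mouse, and with no test, the correlation of Hamp with Tfrc was -0.91 over the 7 mutant arrays (-0.81 without the 2 arrays farthest from the median of Hamp) and 0.10 over the 8 high-background Trim28+/+ arrays. Over these control arrays low Hamp did not go with high Tfrc. The correlation of Hamp with Hamp2 was -0.78 over the 7 mutant arrays and 0.41 over the same 8 control arrays. The correlation of Hamp2 with Tfrc was 0.96 over the mutant arrays and 0.91 over the same control arrays, where it was 0.48 without the 2 arrays farthest from the median of Hamp2, Trim28+/+ replicates 2 and 3. With genotype means removed, it was 0.90 over all 16 arrays, and 23 of the other 7301 genes followed Tfrc more closely than Hamp2 did. The arrays with like levels were also those most alike overall: replicates 1 and 2, 3 and 6, and 4 and 7 of Trim28MommeD9/+ matched best over all genes (r = 0.86, 0.79 and 0.74 of values centred on each gene's mean). Among the high-background controls the presumptive pairs were replicates 2 and 3, 4 and 7, 5 and 8, and 6 and 9 (r = 0.73, 0.47, 0.64 and 0.78). The arrays left out above, Trim28MommeD9/+ replicates 3 and 6 and Trim28+/+ replicates 2 and 3, each form such a pair. With 4 mice of each genotype in the study's methods, the 7 mutant arrays cannot be read as 7 livers, nor the 8 control arrays as 8.

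The genes whose levels followed Hamp most closely over the 16 arrays, with genotype means removed, were Serpina12 (r = 0.90), which encodes the adipokine vaspin, Gclm (0.85), a subunit of the enzyme that makes the glutathione precursor, Cyp2d40 (0.83), Pdcd2l (0.83) and Prkcd (0.83). None of these 5 passed the threshold between genotypes (lowest adjusted p = 0.0702 by limma, for Gclm). Among the iron genes Slc40a1 was nearest to Hamp (r = 0.68), with 115 of 7301 genes nearer.

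The sensors upstream of hepcidin gave small values. Hfe, the MHC class I-like protein lost in the commonest human hemochromatosis, had log2 levels of 7.96 to 8.30 (median 8.11) in Trim28MommeD9/+ and 7.85 to 8.34 (median 7.96) in Trim28+/+, and its main probe did not pass the threshold (0.06, SE 0.08, adjusted p = 0.663 by limma). Its second, dimmer probe was higher in the mutants by 0.34 (SE 0.10, adjusted p = 0.0198 over probes by limma), with 6.61 to 7.08 (median 6.83) against 6.19 to 6.77 (median 6.55). Here Trim28+/+ replicate 1 was the highest control (6.77), 5 of the 7 mutant arrays lay above it, and the difference from it alone was 0.07. How many of all probes had at least 5 such arrays was not counted. The call was lost with each array scaled by its median (0.08, adjusted p = 0.584 by limma) and with presumptive technical pairs (adjusted p = 0.116, limma). It was also lost with a replicate block (0.29, adjusted p = 0.131 by limma), from the authors' values (0.26, adjusted p = 0.0721) and without Trim28MommeD9/+ replicate 5 (adjusted p = 0.0503). The deviations of both Hfe probes were nearly unrelated over arrays (r = -0.16), so the genotype difference of Hfe depended on the probe.

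Tfr2, the receptor that senses iron-loaded transferrin on hepatocytes, had log2 levels of 10.37 to 10.52 (median 10.43) in Trim28MommeD9/+ and 10.18 to 10.56 (median 10.41) in Trim28+/+. The mutant arrays lay within the control range (0.08, SE 0.06, adjusted p = 0.329 by limma). The second probe differed by 0.32 (SE 0.12, adjusted p = 0.0507 over probes by limma), just short of the threshold, with 7.85 to 8.47 against 7.33 to 8.16. Its highest control was again Trim28+/+ replicate 1, and the difference from that array was 0.02.

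The ligand Bmp6 and its co-receptor hemojuvelin (Hjv) were not detected. The single Bmp6 probe had detection p-values of 0.180 to 0.922 over the 16 arrays. The 2 Hjv probes had values of 0.01 to 0.145 and 0.0764 to 0.812, so that none was under the limit of 0.01. These genes give no genotype comparison at this signal, which does not show that they are silent.

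Transferrin (Trf), the iron carrier of plasma that hepatocytes secrete, was 14.50 to 14.62 (median 14.59) in Trim28MommeD9/+ and 14.46 to 14.69 (median 14.56) in Trim28+/+ after quantile normalization. Its log2 fold change was 0.01 (SE 0.04, 95% confidence interval -0.07 to 0.08, adjusted p = 0.927 by limma). The size of this spread depends on the scaling. The authors' values of the same probe ran from 20907 to 30243 in Trim28MommeD9/+ and from 18719 to 29666 in Trim28+/+. The SD within genotypes was 0.06 log2 units here and 0.11 with median scaling over all probes, where 1.53% of genes had a smaller one. It was 0.17 from the authors' values (45.1% of genes smaller) and 0.20 with median scaling over probes detected on all arrays (59.0% smaller).

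The heavy chain of ferritin, Fth1, gave a different value with each probe. The brighter probe read 14.21 to 14.32 (median 14.26) in Trim28MommeD9/+ and 14.09 to 14.34 (median 14.26) in Trim28+/+, a log2 fold change of 0.01 (SE 0.04, 95% confidence interval -0.07 to 0.09, adjusted p = 0.878 by limma). The second probe was lower in the mutants by 0.32 (SE 0.05, adjusted p = 0.000889 over probes by limma), with 13.44 to 13.63 (median 13.58) against 13.62 to 13.96 (median 13.88). On this probe 6 of the 7 mutant arrays were below every Trim28+/+ array. The share of all probes with at least that many was not counted. Full separation in this direction, a stricter mark that this probe did not reach, was seen for 1.14% of all probes. Trim28+/+ replicate 1 was the lowest control at 13.62, so that the low-background set did not overlap the high-background set (13.79 to 13.96), as for 6.09% of all probes in this direction. Against that array alone the second probe differed by -0.08 (adjusted p = 0.904 over probes by limma). The deviations of these probes were unrelated over arrays (r = -0.07). Ferritin has many processed pseudogenes, and which of them either probe could also read was not tested. The light chain Ftl1 had 1 probe, not detected on any array (detection p 0.0288 to 0.648), although ferritin light chain is abundant in liver, so this probe carries no measurement of it.

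Ferroportin (Slc40a1), which hepatocytes and Kupffer cells both use to release iron, was 12.06 to 12.43 (median 12.39) in Trim28MommeD9/+ and 12.03 to 12.64 (median 12.34) in Trim28+/+. The mutant arrays lay within the control range, with a log2 fold change of -0.04 (SE 0.08, 95% confidence interval -0.20 to 0.13, adjusted p = 0.751 by limma). When each array was scaled by its median and not quantile-normalized, the genes as a whole shifted to a median of -0.19 on the log2 scale. Trf (-0.20), Fth1 (-0.23) and Slc40a1 (-0.25) then passed the threshold as lower, close to that shift, and Hamp was at -0.87.

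**Figure D3:**
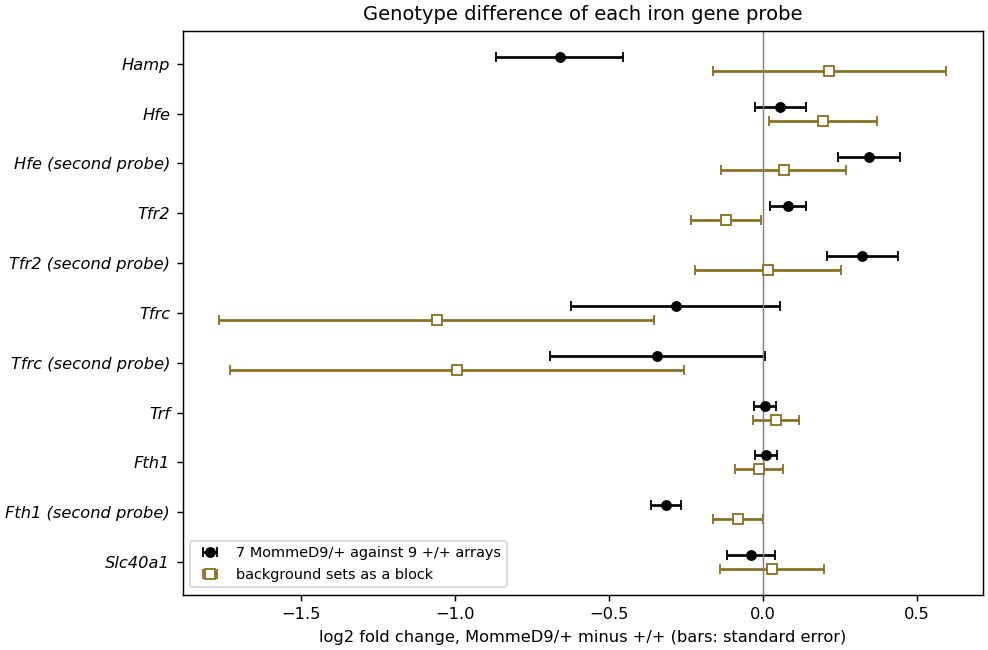
Log2 fold change, Trim28MommeD9/+ minus Trim28+/+ (horizontal axis), of each tested probe of the iron genes, over all arrays (filled circles) and with the background sets as a block (open squares, resting on Trim28+/+ replicate 1 as the only control), with bars for the standard error. Hamp lies at -0.66 and 0.22, and the second probes of Hfe, Tfr2 and Fth1 move to between -0.08 and 0.07.

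The wider iron pathway was described with 5 lists, on hepcidin regulation, BMP-SMAD target genes, uptake, trafficking and export, iron regulatory proteins, and iron-sulphur cluster assembly. Of their 110 genes 73 were tested, of which 8 were higher, 16 lower and 49 not past the threshold. That is 32.9% called beside 21.8% of all genes, with a median log2 fold change of 0.05 for both. The split of 8 and 16 became 0 and 35 with each array scaled by its median, 11 and 14 with the median over probes detected on all arrays, and 4 and 16 from the authors' values. With the presumptive technical pairs as a random block it was 2 and 4. With the set as a block, none of the 73 was called. For 11 of the 16 lower genes Trim28+/+ replicate 1 was below every other Trim28+/+ array, and the median of the 16 moved from -0.38 to -0.03 with the block. How many of the 831 lower genes of the whole series did the same was not counted. With the block 1 gene of the whole series was called lower, so these values are not read as particular to iron genes.

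Among 19 tested genes of hepcidin regulation, 4 were higher and 4 lower (median -0.02), 42.1% called beside 21.8% of all genes. The counts were 0 and 11 with each array scaled by its median, 1 and 4 from the authors' values, and 0 and 0 with presumptive technical pairs. The lower ones included Smad1 (-0.57, SE 0.16, adjusted p = 0.0207) and Smad5 (-0.24, SE 0.06, adjusted p = 0.0116), which carry the BMP signal to the nucleus, and Stat3 (-0.30, SE 0.08, adjusted p = 0.0153), which carries that of interleukin-6. Smad1 was 5.71 to 6.54 in the mutants, 5.96 in Trim28+/+ replicate 1 and 6.44 to 7.37 on the other controls. Acvr1 was the other lower one (-0.29, SE 0.09, adjusted p = 0.0350 by limma). Pcsk7, a proprotein convertase, was higher (0.21, SE 0.07, adjusted p = 0.0318), as was Tmprss6, the protease that cleaves hemojuvelin and so restrains hepcidin (0.22, SE 0.07, adjusted p = 0.0329). The other higher ones were Acvr2b (0.26, SE 0.09, adjusted p = 0.0415 by limma) and Jak2 (0.22, SE 0.08, adjusted p = 0.0434 by limma). Against Trim28+/+ replicate 1 alone the lower ones were 0.14 for Smad1, -0.10 for Smad5, -0.13 for Stat3 and -0.07 for Acvr1. The higher ones were then 0.04 for Pcsk7, -0.03 for Tmprss6, 0.23 for Acvr2b and 0.17 for Jak2.

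Of 5 tested BMP-SMAD target genes, 1 was higher and 1 lower, 40% called beside 21.8% of all genes. The counts were 0 and 2 with each array scaled by its median, and 1 and 0 with presumptive technical pairs. Id1, an inhibitor of basic helix-loop-helix factors whose mRNA follows BMP signalling in liver, was higher by 0.60 (SE 0.16, adjusted p = 0.0121), at 6.98 to 7.86 in the mutants, 6.56 in Trim28+/+ replicate 1 and 6.37 to 7.32 on the other controls. It differed from replicate 1 alone by 0.95 (adjusted p = 0.541, limma with the set as a block). Id2 was lower by 0.70 (SE 0.20, adjusted p = 0.0176) over all arrays and higher by 0.45 against that array. Hamp and Id1, which both respond to BMP signals, thus had fold changes of opposite sign over all arrays, though not against replicate 1 alone.

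The iron regulatory proteins and their regulators had 10 tested members, 1 higher and 4 lower, 50% called beside 21.8% of all genes, and 1 and 3 with presumptive technical pairs. The lower ones were Aco1 (-0.60, SE 0.11, adjusted p = 0.00148), whose product is iron regulatory protein 1 when it lacks its iron-sulphur cluster, Fbxl5 (-0.37, SE 0.09, adjusted p = 0.00768), the iron-sensing subunit of the ligase that degrades iron regulatory protein 2, and its partners Skp1 (-0.86, SE 0.17, adjusted p = 0.00242) and Cul1 (-0.67, SE 0.12, adjusted p = 0.00182). Aco1 was 6.58 to 6.96 in the mutants and 7.35 to 7.79 on the high-background controls, with Trim28+/+ replicate 1 at 6.89. Skp1 was 6.29 to 6.64 and 7.13 to 7.98, with replicate 1 at 6.43. In these genes replicate 1 thus lay with the mutants, and the differences from it were -0.05 for Aco1, 0.08 for Fbxl5, 0.05 for Skp1 and -0.15 for Cul1. Zfp36, an mRNA-destabilising protein that lowers Tfrc mRNA when iron is short, was higher by 0.60 (SE 0.18, adjusted p = 0.0234) and by 1.11 against replicate 1 alone (adjusted p = 0.541).

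**Figure D4:**
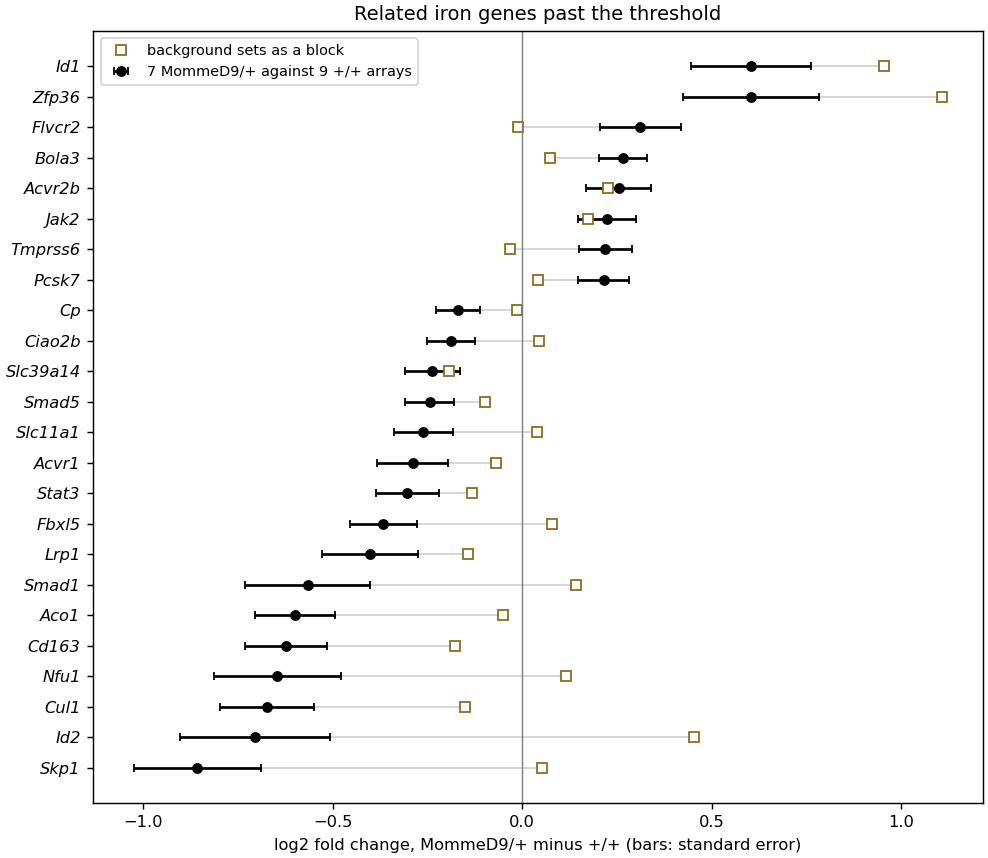
Log2 fold change, Trim28MommeD9/+ minus Trim28+/+ (horizontal axis), of the 24 related iron genes past the threshold, over all arrays (filled circles with standard error) and with the background sets as a block (open squares, resting on Trim28+/+ replicate 1 as the only control). The mutant signal was detected on 0 of 7 arrays for Cd163 and 1 of 7 for Nfu1, whose points are not measured sizes. All 16 lower genes are nearer to 0 with the block, 7 of them above it, while 2 of the 8 higher genes, Id1 and Zfp36, are farther from 0. The like shares over all called genes were not counted.

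In uptake, trafficking and export, 1 of 23 tested genes was higher and 5 were lower, 26.1% called beside 21.8% of all genes. The counts were 0 and 10 with each array scaled by its median, 0 and 5 from the authors' values, and 0 and 1 with presumptive technical pairs. Cd163, the macrophage receptor for haemoglobin bound to haptoglobin, was called lower (adjusted p = 0.00145) but detected on 0 of 7 mutant and 6 of 9 Trim28+/+ arrays, so that it passed the filter through the controls alone. Taking the lowest detected signal of each mutant array as its limit, it was at least 1.06-fold lower. The other lower ones were Lrp1 (-0.40, SE 0.13, adjusted p = 0.0310), the receptor for haem bound to hemopexin, Slc11a1 (-0.26, SE 0.08, adjusted p = 0.0234), which moves iron out of phagosomes, Slc39a14 (-0.24, SE 0.07, adjusted p = 0.0269), which takes up iron not bound to transferrin, and Cp, the plasma ferroxidase (-0.17, SE 0.06, adjusted p = 0.0445). Flvcr2 was the higher one (0.31, SE 0.11, adjusted p = 0.0453). The differences from Trim28+/+ replicate 1 alone were -0.14 for Lrp1, 0.04 for Slc11a1, -0.19 for Slc39a14, -0.01 for Cp and -0.01 for Flvcr2. In iron-sulphur cluster assembly 13 of 16 tested genes did not pass, so that 18.75% were called beside 21.8% of all genes. With presumptive technical pairs none of the 16 passed. Bola3 was higher (0.27, SE 0.06, adjusted p = 0.00738), and Ciao2b was lower (-0.19, SE 0.06, adjusted p = 0.0392). From replicate 1 alone they differed by 0.07 and 0.05. Nfu1, which like Bola3 serves cluster delivery in mitochondria, was called lower (adjusted p = 0.0114) but detected on 1 of 7 mutant arrays against 9 of 9 controls, so the size of its difference is not given.

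Markers of the cells that bear on hepatic iron moved unevenly, and their part in the values above was not tested. In whole liver, fewer cells of a type and less RNA per cell cannot be told apart. Of 16 Kupffer cell markers 12 were tested, 6 higher and 2 lower, 66.7% called beside 21.8% of all genes, and 2 and 1 with presumptive technical pairs. The log2 of their summed level was 11.39 to 11.64 in Trim28MommeD9/+, 11.30 in Trim28+/+ replicate 1 and 11.02 to 11.44 on the other controls. The higher ones included Clec4f (0.27, SE 0.07, adjusted p = 0.0127), the macrophage receptor Vsig4 (0.44, SE 0.08, adjusted p = 0.00213) and the complement component C1qc (0.47, SE 0.09, adjusted p = 0.00242), while Cd163 and Slc11a1, the lower ones, are Kupffer cell genes too. With each array scaled by its median the list had 0 higher and 3 lower, and from the authors' values 3 and 3. Kupffer cells recycle red-cell iron and express Slc40a1, so these values stand beside those of Slc40a1 and Cd163. Against Trim28+/+ replicate 1 alone the difference of Clec4f was larger, at 0.42. Those of the other higher markers were smaller, at 0.26 for Vsig4 and 0.25 for C1qc. For C1qb it was 0.22 (0.39 over all arrays), for C1qa 0.21 (0.24) and for Lyz2 0.03 (0.37).

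Of 10 tested hepatocyte markers none was higher and 4 were lower, 40% called beside 21.8% of all genes. The lower ones were Serpina1a (-0.80), Cyp2e1 (-0.21), Alb (detected on 5 of 7 mutant and 9 of 9 Trim28+/+ arrays) and Pck1 (detected on 2 of 7 and 7 of 9). The counts were 0 and 9 with each array scaled by its median, 0 and 4 from the authors' values, and 0 and 1 with presumptive technical pairs. Against Trim28+/+ replicate 1 alone Serpina1a was at 0.22 and Cyp2e1 at -0.17. The log2 summed level of the tested markers was 17.07 to 17.14 in the mutants, 17.10 in Trim28+/+ replicate 1 and 17.15 to 17.21 on the other controls. Hepatocytes are the source of Hamp. The summed level of their markers was narrowly lower in the low-background set without overlap, though 6 of the 10 tested markers did not pass the threshold. Such a lack of overlap in this direction was seen for 6.09% of all single probes. Hamp was lower in that set with overlap, and whether the markers bear on it was not tested. For Alb the mutants were at 5.00 to 5.67, replicate 1 at 5.03 and the other controls at 6.56 to 6.97. Albumin is among the most abundant liver mRNAs, and whether this probe reads its main transcript was not tested. Acute phase genes rise with the interleukin-6 signal that also raises hepcidin. Of these, 1 of 16 tested was higher (Saa3, 0.29) and 3 were lower (Fgg, -0.40, Itih3, -0.26 and Lbp, -0.30), with a median of 0.02. That is 25% called beside 21.8% of all genes. The counts were 0 and 9 with each array scaled by its median, 0 and 3 from the authors' values, and 0 and 0 with presumptive technical pairs. Against Trim28+/+ replicate 1 alone Saa3 was at 0.07, Fgg at 0.03, Itih3 at 0.01 and Lbp at -0.14. Of 17 red cell and erythroid markers 6 were tested and 2 were lower, 33.3% called beside 21.8% of all genes. They were Hbb-b2 (-1.16, and -0.11 against Trim28+/+ replicate 1 alone) and Hbb-bt (detected on 1 of 7 mutant and 7 of 9 Trim28+/+ arrays), near-identical globin genes whose probes may share RNA. With presumptive technical pairs 1 was lower. The summed level of the tested markers overlapped between genotypes (13.98 to 14.62 and 14.11 to 14.60). Sinusoidal endothelial markers, the source of Bmp6, had 1 higher and 1 lower of 12 tested, 16.7% called beside 21.8% of all genes. They were Pecam1 (0.29, and 0.32 against Trim28+/+ replicate 1 alone) and Wnt2 (detected on 4 of 7 mutant and 9 of 9 Trim28+/+ arrays). The counts were 0 and 7 with each array scaled by its median, 0 and 3 from the authors' values, and 0 and 1 with presumptive technical pairs. Stellate cell markers had 1 lower of 9, 11.1% called beside 21.8% of all genes. The lower one was Col3a1, detected on 0 of 7 mutant and 8 of 9 Trim28+/+ arrays, so that it passed the filter through the controls alone. With the same limit as for Cd163 it was at least 1.16-fold lower. Neither of the 2 tested lymphocyte and neutrophil markers passed.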

How the data were processed

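The authors hybridised liver RNA to Illumina MouseRef-8 v2.0 BeadChips and, per the labels, used GenomeStudio. The deposited tables hold mean bead intensity per probe with a detection p-value against negative controls, and a second table of intensity that the authors background-subtracted and scaled by a linear step per array. No source used here names their versions.

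Raw intensities of 25697 probes were corrected by normexp with the detection p-values (limma 3.58.1 in R 4.3.3, offset 16), quantile-normalized and taken to log2. Probes with a detection p under 0.01 on at least 3 of 16 arrays were kept (10291), and a gene took its probe of highest mean (7302 genes). Genotypes were compared with lmFit and eBayes (trend in intensity), with Benjamini-Hochberg adjustment of the p-values. The procedure was tested on simulated data, where it found 35% of changes of 0.3 log2 units, 85.5% of 0.6 and 98.5% of 1. The simulated noise was independent between arrays, without shared mice or background sets, so these shares do not cover those features of the data. Symbols came from the platform annotation, updated through Entrez identifiers for 23962 of the 23978 named probes. Sequences are from RefSeq (GRCm38.p6), aligned with Biopython 1.88. Arrays give no read depth, and their number limits the precision.

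The members and gene lists were chosen with earlier results of these data known. Named genes are the members, Trim28, up to 4 called genes of lowest p in each list, and the 5 genes most like Hamp by correlation. Hamp2, Tmprss6, Zfp36, Acvr1, Acvr2b, Jak2, Cp and Flvcr2 were added after their values were seen, as was the comparison of Hamp with Hamp2 and Tfrc. Alternatives covered background correction, normalization, filters, the authors' values, the fit, blocks, thresholds, the choice of probe and leaving out each array.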

Additional observations from a re-analysis of the deposited data

Results flagged for a closer look

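In the group of 9 Trim28+/+ arrays, the second Fth1 probe stood apart on replicate 1, where it was lowest at 13.62. The next array was at 13.79, a gap of 0.51 of the group's whole range. It was the only array that stood apart among 26 groups tested (13 probes in each genotype), and chance alone marks about 1 group in 20. That array is also the only control of the low-background set.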

How the results depend on the processing

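The results were recomputed under alternatives changed singly, and unless a value below shows it the cause of a change was not tested. Over all arrays and genes the counts were 761 higher and 831 lower, for the iron genes 0 and 1, for their probes 1 and 2, and for the 5 related lists 8 and 16. With the background sets as a block these were 2 and 1, 0 and 0, 0 and 0, and 0 and 0. Within the low-background set, which leaves 8 arrays, they were 20 and 28, 0 and 0, 0 and 0, and 0 and 1. In both, Hamp turned to 0.22, Tfr2 to -0.12, Fth1 to -0.0129 and Slc40a1 to 0.0295, and Trim28 was at -0.77, not past the threshold with the block. Same-numbered arrays of both genotypes did not deviate together (r from -0.39 to 0.48, and 2 of 7 numbers correlated best with their own), so the number was not taken as a pairing. The replicate block gave 162 and 379 genes, 0 and 0 iron genes, 0 and 1 probes, 0 and 4 related genes, and Hamp at -0.59. Presumptive technical pairs as a random block gave 176 and 311, 0 and 0, 0 and 1, 2 and 4, and Hamp at -0.59 (adjusted p by limma = 0.115). Median scaling of all probes gave 35 and 2526 genes, 4 lower iron genes, 0 higher and 5 lower probes and 0 and 35 related genes, and turned Hfe to -0.21, Tfr2 to -0.14, Trf to -0.20 and Fth1 to -0.23. Median scaling on probes detected on all arrays turned Slc40a1 to 0.0109. Array weights turned Tfrc to 0.14, its second probe to 0.10 and Trf to -0.00388. The other probe put Fth1 at -0.32. The authors' values gave 377 higher genes, 0 higher probes and 4 higher related genes. Without a filter 461 genes and 3 related genes were higher. At an adjusted p under 0.025, 456 genes were higher, 0 iron genes and 1 probe lower and 3 related genes higher. No background correction, an offset of 50, a robust eBayes fit and an unadjusted p under 0.025 each gave 2 higher probes. Leaving out each array gave 501 to 980 higher genes (501 without Trim28MommeD9/+ replicate 6), 0 to 1 lower iron genes, 0 to 2 higher probes (0 without Trim28MommeD9/+ replicate 5, 2 without Trim28MommeD9/+ replicate 3 or Trim28+/+ replicate 1 or 3), 1 to 2 lower probes (1 without Trim28MommeD9/+ replicate 3 or 6 or Trim28+/+ replicate 9), 2 to 9 higher related genes, and Hamp at -0.77 to -0.51, past the threshold without 12 of the 16 arrays. The log2 fold change was then -0.0113 to 0.0207 for Fth1, -0.0808 to 0.0037 for Slc40a1 and -0.00794 to 0.0208 for Trf. The higher related genes numbered 2 to 5 without Trim28MommeD9/+ replicate 1, 2, 4, 5 or 6 or Trim28+/+ replicate 6, 7, 8 or 9.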
